A study of Danio rerio with 61 samples.

Results

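The genes described here are 10 genes used as markers of macrophages, taken as a list of symbols that was drawn up with earlier results of these data known: mpeg1.1, csf1ra, marco, c1qa, c1qb, c1qc, apoeb, grn1, grn2 and lcp1. All 10 were present among the 32520 counted zebrafish genes, all 10 were in the authors' normalized table of 16890 genes, and all 10 passed the filter on low counts. The samples were cardiac ventricles of adult zebrafish of 7 wild-type strains (WIK, TU, TL, SAT, NA, KCL and AB), each taken from 1 fish. Ventricles were collected 1 day post cryo-injury (dpci), 7 dpci or without injury, and the injury was made by touching the ventricle tip with a copper probe cooled in liquid nitrogen. Each strain gave 3 fish a stage, except that SAT and TU gave 2 fish at 1 dpci, which made 19 libraries at 1 dpci, 21 at 7 dpci and 21 from uninjured hearts, 61 in all. The labels give no transgene and no treatment other than the injury for these fish.

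Macrophages are phagocytes that live in the resting heart and that also arrive from the blood after injury, where they engulf dead cells and debris. In the zebrafish heart they are known to be needed for clearing the wound and for regeneration of the muscle. Their number in a tissue is commonly read from genes used mainly by these cells: mpeg1.1 encodes a pore-forming protein (perforin-2) and drives the standard macrophage reporter line of the fish, csf1ra encodes a receptor for the growth factors that keep macrophages alive, marco encodes a scavenger receptor for bacteria and debris, and c1qa, c1qb and c1qc encode the chains of C1q, the molecule that starts the classical complement pathway. The other members are less restricted: apoeb encodes an apolipoprotein E, grn1 and grn2 encode short granulins, and lcp1 encodes L-plastin, an actin-bundling protein of all leukocytes, neutrophils included. In the bulk ventricle, fewer macrophages and less of a transcript per macrophage cannot be told apart.

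Libraries held 2943684 to 5538019 counts (median 3843819). Transcripts encoded in the mitochondrial genome took 44.2 to 77.7% of them, so that 991472 to 2146167 counts remained for all other genes, and 3 counts, the most that a count of 0 allows, were worth 0.445 to 1.15 CPM (counts of a gene divided by the scaled library total and set to a common library size). Levels below are CPM after scaling by trimmed mean of M-values (TMM). In 6 libraries the title and the time label disagreed, and the title was followed. Uninjured SAT replicate 3 and uninjured TU replicate 1 carried a time label of 7 days. The label was 1 day for SAT replicate 38 and TU replicate 49 at 7 dpci. It was 0 days for TL replicate 41 and WIK replicate 55 at 1 dpci. Over all genes, the 6 uninjured libraries of NA and TU were most similar to the 7 dpci libraries of the opposite strain (NA to TU, TU to NA), whereas in the remaining 5 strains 44 of 44 libraries matched their own strain best, whichever other stage was compared. The 2 TU libraries at 1 dpci split: replicate 48 was closer to NA than to TU at 7 dpci (r = 0.33 and -0.11) and closest to the libraries named uninjured TU (r = 0.41), whereas replicate 54 was closest to TU at 7 dpci (r = 0.47) and to the libraries named uninjured NA (r = 0.35). The strain names of the uninjured NA and TU libraries and of TU replicate 48 are thus in doubt, and results that rest on NA or TU are also given without them. Likeness alone cannot tell whether these libraries or the other injured libraries of NA and TU carry the wrong names. The doubt therefore extends to every NA and TU library.

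In the uninjured ventricle the macrophage markers were present at low levels. mpeg1.1 had a median of 3.76 CPM in uninjured fish (0 to 34.1), 18.1 CPM at 1 dpci (2.27 to 78.2) and 10.9 CPM at 7 dpci (1.2 to 33.2). marco had a median of 4.41 CPM in uninjured fish (0 to 19.6), 22.4 CPM at 1 dpci (3.61 to 78.4) and 7.18 CPM at 7 dpci (1.40 to 35.8). For both genes the middle of the 1 dpci fish lay above most uninjured fish, and the stages overlapped at their edges. csf1ra was near the limit of detection: it had no count in 15 of 21 uninjured libraries, 3 of 19 at 1 dpci and 6 of 21 at 7 dpci, and its highest value was 3.39 CPM, in a fish at 1 dpci.

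The C1q genes were present in every fish and had similar medians at 1 and 7 dpci. c1qb had a median of 9.88 CPM in uninjured fish (3.6 to 31.8), 25.3 CPM at 1 dpci (8.06 to 106) and 26.8 CPM at 7 dpci (13.6 to 68.3). c1qa had medians of 4.38, 10.1 and 10.03 CPM in uninjured, 1 dpci and 7 dpci fish, and c1qc had medians of 5.65, 17.1 and 14.5 CPM in the same order. c1qb was the only member whose median was higher at 7 dpci than at 1 dpci, and the other 9 had their highest stage median at 1 dpci.

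The granulins, apoeb and lcp1 had a short peak. grn1 had a median of 7.47 CPM in uninjured fish (1.09 to 277), 382 CPM at 1 dpci (18.5 to 1139.6) and 42.7 CPM at 7 dpci (5.99 to 135). grn2 had a median of 1.37 CPM in uninjured fish (0 to 932), 30.6 CPM at 1 dpci (0 to 2583) and 10.98 CPM at 7 dpci (0 to 76.5). The most extreme grn2 values were single fish: 932 CPM in uninjured TL replicate 2 and 2583 CPM in 1 dpci NA replicate 28. apoeb had medians of 0.872, 6.82 and 2.997 CPM in uninjured, 1 dpci and 7 dpci fish, with 159 CPM in 1 dpci KCL replicate 63. lcp1 had no count in 15 uninjured libraries, 1 at 1 dpci and 6 at 7 dpci, and its median was 2.40 CPM at 1 dpci.

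**Figure D1:**
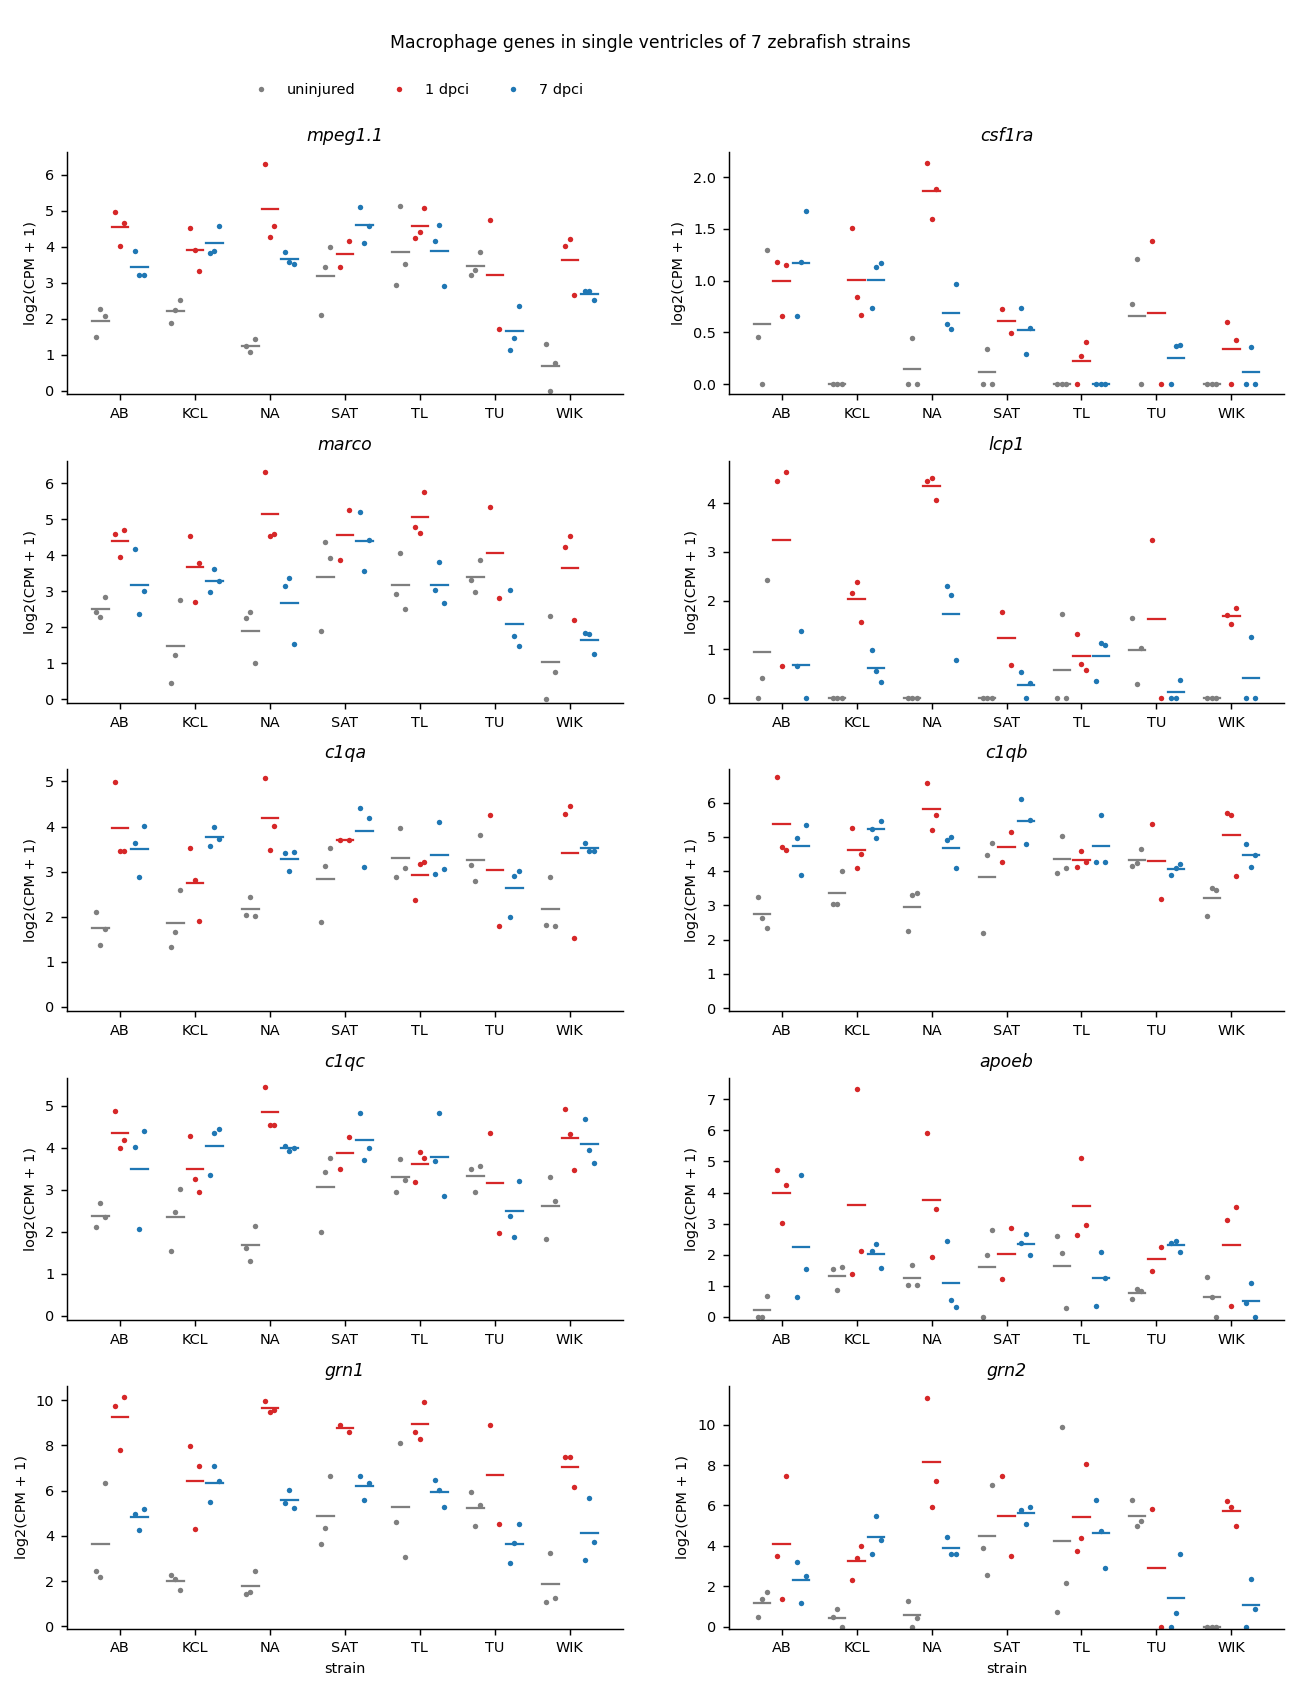
Level of each of the 10 macrophage genes in each of the 61 ventricles (log2(CPM + 1) axis), by strain and stage, with a point for each fish and a line at each group mean. For grn1 the fish at 1 dpci lie between 18.5 and 1139.6 CPM. The C1q genes have similar medians over all fish at 1 and 7 dpci, but in NA they lie lower at 7 dpci without overlap.

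The first comparison asked which of these genes differed between hearts at 1 dpci and uninjured hearts when the 7 strains are given equal weight. All 10 members were higher at 1 dpci, against a background of 16.2% of the 16890 genes tested (edgeR's quasi-likelihood test, Benjamini-Hochberg adjusted p below 0.05). Their median log2 fold change was 2.44, or 2.22 with groups that had no count held at 3 counts over the group, and the median over all genes tested was 0.067. The granulin grn1 changed most among the members present in every group, with a log2 fold change of 4.57 ± 0.40 (SE; 23.7-fold; adjusted p = 1.4e-13), and its mean was higher at 1 dpci in 7 of 7 strains. apoeb followed with 3.32 ± 0.52 (9.99-fold; adjusted p = 7.3e-07).

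The receptors and the pore-forming protein rose by similar amounts. marco changed by 2.22 ± 0.28 on the log2 scale (4.65-fold; adjusted p = 6.2e-09) and mpeg1.1 by 2.19 ± 0.25 (4.58-fold; adjusted p = 4.3e-10), each with a higher mean at 1 dpci in 7 of 7 strains. With groups at 0 held at 3 counts, the mean was higher in 7 strains for c1qc, apoeb and lcp1 too. It was higher in only 6 strains for c1qa and c1qb, and in 5 for csf1ra and grn2. In TL and WIK csf1ra had means of 0.177 and 0.287 CPM at 1 dpci and no uninjured count. There the floor of 3 counts set the direction. The C1q chains rose least: c1qb by 1.49 ± 0.22 (2.81-fold; adjusted p = 1.5e-07), c1qc by 1.46 ± 0.22 (2.75-fold; adjusted p = 3.8e-07) and c1qa by 1.24 ± 0.24 (2.37-fold; adjusted p = 3.7e-05). For csf1ra, grn2 and lcp1 at least 1 strain had no count in its uninjured fish, so the fitted mean over strains has no firm size, and a fit with 1 stage effect shared by the strains, added after the data were seen, gave 2.01 for csf1ra (adjusted p = 0.00098), 2.92 for grn2 (adjusted p = 0.025) and 3.27 for lcp1 (adjusted p = 7.5e-07).

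These calls depended on the processing in 2 ways. With 1 factor of unwanted variation in the model, computed here after the principle of RUVg (the method named by the authors) and not with its package, 0 of 10 members passed at 1 dpci against uninjured (a negative change was fitted for csf1ra, c1qa and grn2). That factor, taken from the 8445 genes with a coefficient of variation below the median, had 77.7% of its own variance between the stages. The share of all genes that passed with it is not given here or below, so the lost calls cannot be read as particular to the members. Without 1 dpci TU replicate 48, whose strain name is in doubt, the count was 7 of 10. The TU fish then left at 1 dpci, replicate 54, had no count of csf1ra, grn2 or lcp1, so the mean over strains could not be tested for these 3 genes (fitted log2 fold changes 1.97, 2.83 and 3.71), and the spread of that lone fish was taken from the other groups; without all NA and TU fish the count was 10 of 10.

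At 7 dpci against uninjured hearts, 5 of 10 members were higher, against 4.46% of all genes tested, and the members' median log2 fold change was 1.27 (1.17 with groups at 0 held at 3 counts; 0.029 over all genes). The 3 C1q genes were among them: c1qb changed by 1.26 ± 0.21 (2.39-fold; adjusted p = 3.2e-05), c1qc by 1.22 ± 0.22 (adjusted p = 8.6e-05) and c1qa by 1.08 ± 0.24 (adjusted p = 0.0015). mpeg1.1 changed by 1.29 ± 0.27 (adjusted p = 0.00072) and grn1 by 1.43 ± 0.37 (adjusted p = 0.01). marco had 0.52 ± 0.31 (adjusted p = 0.42) and apoeb 1.17 ± 0.61 (adjusted p = 0.32), neither of which passed, nor did csf1ra, grn2 or lcp1. In the fit with 1 shared stage effect only the 3 C1q genes passed, with mpeg1.1 at 0.94 (adjusted p = 0.081) and grn1 at 1.04 (adjusted p = 0.26), and with 1 RUVg-type factor 3 of 10 passed, c1qa and grn1 not among them.

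Between 7 and 1 dpci the members split. At 7 dpci 6 of 10 were lower than at 1 dpci, against 12.4% of all genes tested, with a median log2 fold change of -1.41 for the members and -0.013 for all genes. grn1 had -3.14 ± 0.37 (adjusted p = 1.6e-09), lcp1 -2.79 ± 0.48 (adjusted p = 1.6e-05), grn2 -2.65 ± 0.58 (adjusted p = 0.00038) and apoeb -2.15 ± 0.46 (adjusted p = 0.00027). marco, the scavenger receptor, had -1.70 ± 0.27 (adjusted p = 1.5e-06) and mpeg1.1 had -0.91 ± 0.22 (adjusted p = 0.0012). The C1q genes had mean changes over the strains near 0: -0.16 ± 0.22 for c1qa, -0.23 ± 0.20 for c1qb and -0.24 ± 0.20 for c1qc. Their adjusted p lay between 0.51 and 0.79.

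These C1q values turned positive without the NA and TU fish (0.18 for c1qa, 0.051 for c1qb and 0.095 for c1qc), where mpeg1.1 also lost its call and 5 of 10 members were lower. Without 1 dpci TU replicate 48 the count was 3 of 10: mpeg1.1 no longer passed, and grn2 and lcp1 could not be tested, as the remaining TU fish had no count of them, and with 1 RUVg-type factor it was 0 of 10. The 3 comparisons share their groups of fish, so their values stand side by side and are not independent.

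**Figure D2:**
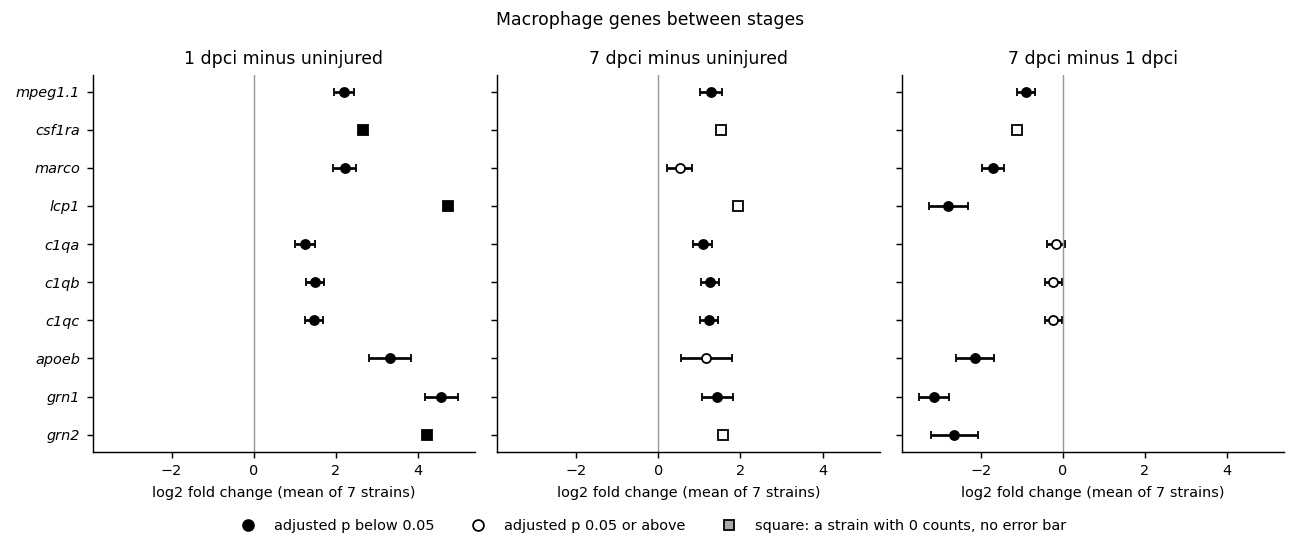
Mean log2 fold change over the 7 strains for each member in the 3 stage comparisons, with bars of 1 SE; squares mark genes with a strain at 0 counts, whose fitted value has no firm size and no bar. All 10 members are above 0 at 1 dpci against uninjured, and the C1q genes lie near 0 at 7 dpci against 1 dpci.

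Within single strains, 27 of the 70 member and strain pairs were higher at 1 dpci than in uninjured fish, against 3.03% of all gene and strain pairs, and none were lower. All 10 members passed in NA (background 6.6%), 7 in AB (3.83%; csf1ra, marco and grn2 did not pass), 6 in WIK (3.73%; mpeg1.1, marco, c1qb, c1qc, grn1 and grn2) and 4 in KCL (3.45%; mpeg1.1, apoeb, grn1 and lcp1). In SAT, TL and TU none passed, where the backgrounds were 2.01, 0.941 and 0.669% and 2, 3 and 1 members had an unadjusted p below 0.05. The members' median log2 fold change was 4.14 in NA, 3.41 in KCL, 3.32 in WIK and 3.05 in AB, and 0.83 in SAT, 0.40 in TL and 0.40 in TU. Taken from group means of CPM with groups at 0 held at 3 counts, the medians were 4.28 in NA, 2.23 in KCL (2 members with such a group), 2.96 in WIK (3 members), 3.05 in AB, 0.83 in SAT, 0.25 in TL and 0.39 in TU, so the order of KCL, WIK and AB depended on the genes at 0. SAT and TU had only 2 fish at 1 dpci. When each fish was left out in turn, 13 of the 27 calls held in every fit: mpeg1.1, c1qb and grn1 in AB, grn1 in KCL, mpeg1.1, marco, c1qb, c1qc, grn1, grn2 and lcp1 in NA, and mpeg1.1 and grn1 in WIK.

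In NA hearts every member separated the 1 dpci fish from the uninjured fish. Over all strains 12.7% of gene and strain pairs did so in this direction, and the share in NA alone is not given. mpeg1.1 had 78.2, 18.3 and 22.8 CPM in NA fish at 1 dpci, against 1.37, 1.1 and 1.71 CPM in uninjured NA fish. grn1 had 1005, 702 and 767 CPM in NA fish at 1 dpci, against 1.71, 1.83 and 4.44 CPM in uninjured NA fish. lcp1 had 21.1, 21.8 and 15.8 CPM in NA fish at 1 dpci and no count in 3 uninjured NA fish, which is at least 55.9-fold higher at 1 dpci with the uninjured group held at 3 counts. Replicate 28 was the highest of the 3 injured fish for every member except lcp1, and the names of the NA libraries are in doubt as stated above. The log2 fold changes were 4.80 ± 0.72 for mpeg1.1 (adjusted p = 3.6e-06) and 8.25 ± 1.26 for grn1 (adjusted p = 5.2e-06).

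WIK and AB gave the same direction with other leading genes. grn2 had 74.7, 60.5 and 30.6 CPM in WIK fish at 1 dpci and no count in 3 uninjured WIK fish, at least 167-fold higher at 1 dpci. mpeg1.1 had 15.2, 17.6 and 5.32 CPM in WIK fish at 1 dpci, against 1.45, 0 and 0.706 CPM in uninjured WIK fish (log2 fold change 4.17 ± 0.84; adjusted p = 0.00099). c1qb had 106, 25.3 and 23.7 CPM in AB fish at 1 dpci, against 8.45, 5.14 and 4.08 CPM in uninjured AB fish (3.15 ± 0.60; adjusted p = 0.00037). In each of these comparisons all injured fish lay above all uninjured fish. In KCL, apoeb rested on 1 fish: it had 1.58, 159 and 3.33 CPM in KCL fish at 1 dpci, against 1.91, 0.807 and 2.01 CPM in uninjured KCL fish, and its log2 fold change of 5.12 was 0.67 without replicate 63.

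In TL, TU and SAT some uninjured fish already had much of the signal of the injured ones. The names of the TU libraries are in doubt. mpeg1.1 had 18.1, 20.4 and 32.9 CPM in TL fish at 1 dpci, against 6.67, 34.1 and 10.5 CPM in uninjured TL fish. The TL overlap in mpeg1.1 came from uninjured replicate 2 alone, at 34.1 CPM, the fish that also had 277 CPM of grn1. For c1qa the TL groups overlapped without that fish too. The other uninjured TL fish had 6.34 and 7.47 CPM of c1qa, against 4.16, 8.04 and 8.28 CPM at 1 dpci. In TU fish at 1 dpci mpeg1.1 had 25.6 and 2.27 CPM, against 8.31, 9.15 and 13.4 CPM in uninjured TU fish. SAT fish had 9.81 and 17.0 CPM of mpeg1.1 at 1 dpci, against 3.30, 9.91 and 14.9 CPM in uninjured SAT fish. The groups overlapped in all 3 strains, with log2 fold changes of 0.48 ± 0.52 in TL, 0.46 ± 0.60 in TU and 0.51 ± 0.61 in SAT. grn1 did separate the groups in SAT, with 482 and 385 CPM at 1 dpci against 11.4, 19.3 and 98.5 CPM in uninjured fish (3.33 ± 1.00; adjusted p = 0.053), and in TL, with 382, 310 and 982 CPM at 1 dpci against 23.7, 277 and 7.47 CPM in uninjured fish (2.44 ± 0.92; adjusted p = 0.17), though neither passed the test.

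For marco and csf1ra, values are given for NA and TL. The interaction test described below called no difference in stage change among strains for either gene in the main edgeR fit. marco had 78.4, 22.4 and 22.97 CPM in NA fish at 1 dpci, against 3.77, 4.38 and 1.02 CPM in uninjured NA fish (log2 fold change 3.75 ± 0.77; adjusted p = 0.00046). In TL it had 26.4, 23.7 and 53.1 CPM at 1 dpci, against 6.67, 15.8 and 4.69 CPM in uninjured fish (1.94 ± 0.66; adjusted p = 0.11), which did not pass. csf1ra had 3.39, 2.01 and 2.7 CPM in NA fish at 1 dpci, against 0, 0.365 and 0 CPM in uninjured NA fish, and in TL it had no count in any uninjured fish or any fish at 7 dpci. The marco fish of the stages did not overlap in either strain, and the csf1ra levels are a few counts a library.

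For apoeb, values are given for AB, TU and NA, and that test called no difference in stage change among strains for apoeb either. It had 25.3, 7.19 and 18.0 CPM in AB fish at 1 dpci, against 0, 0 and 0.582 CPM in uninjured AB fish, and all 3 injured fish lay above. In TU it had 1.79 and 3.72 CPM at 1 dpci, and at 7 dpci it had 4.19, 4.42 and 3.26 CPM, against 0.475, 0.872 and 0.771 CPM in uninjured TU fish. The libraries named uninjured NA had 1.03, 2.19 and 1.02 CPM of apoeb, also below the TU fish at 7 dpci. In NA it had 4.44, 0.443 and 0.238 CPM at 7 dpci, against 59.1, 2.82 and 10.04 CPM at 1 dpci, and these fish overlapped.

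Over all strains the fish at 1 dpci lay entirely above the uninjured fish in 37 of the 70 pairs and entirely below in 0, against 12.7 and 9.94% of all gene and strain pairs. For 7 dpci against uninjured 26 pairs lay above and 2 below, against 7.94 and 6.7%. Only 4 of the 70 pairs passed the test there as higher, against 0.845%: grn1 in KCL, and mpeg1.1, c1qc and grn1 in NA. For grn1, KCL fish had 44.3, 135 and 83.8 CPM at 7 dpci, against 3.83, 3.23 and 2.01 CPM in uninjured KCL fish (log2 fold change 4.85 ± 1.13; adjusted p = 0.012). None of the 4 calls held in every fit with 1 fish left out, where the count ran from 1 to 4.

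At 7 dpci against 1 dpci 1 pair lay entirely above and 22 below, against 9.62 and 10.9%. The C1q genes in NA were among the 22, with c1qb at 29.1, 30.8 and 15.9 CPM at 7 dpci, against 94.4, 35.7 and 48.4 CPM at 1 dpci. None of them passed the test. The pair above was c1qa in KCL, and the c1qb mean was higher at 7 dpci in 3 of 7 strains. In this comparison 11 of 70 pairs were lower at 7 dpci, against 1.47%, and they comprised 6 in NA (mpeg1.1, marco, apoeb, grn1, grn2 and lcp1), grn1 and lcp1 in AB, grn1 in TL, and mpeg1.1 and grn1 in TU. grn1 in AB had 30.7, 18.4 and 35.3 CPM at 7 dpci, against 865, 223 and 1139.6 CPM at 1 dpci (log2 fold change -4.72 ± 1.02; adjusted p = 0.0031). The NA values of grn2, mpeg1.1 and apoeb leaned on replicate 28, without which grn2 had -2.82 in place of -6.01, mpeg1.1 -0.82 in place of -1.78 and apoeb -1.92 in place of -3.82. Of the 11 calls only grn1 in AB held in every fit with 1 fish left out. The TU values leaned on replicate 48, whose strain name is in doubt and without which mpeg1.1 had 0.060 in place of -2.55 and grn1 -0.72 in place of -4.24. With 1 RUVg-type factor, 0 of 70 pairs passed both at 1 dpci against uninjured and at 7 dpci against 1 dpci.

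**Figure D3:**
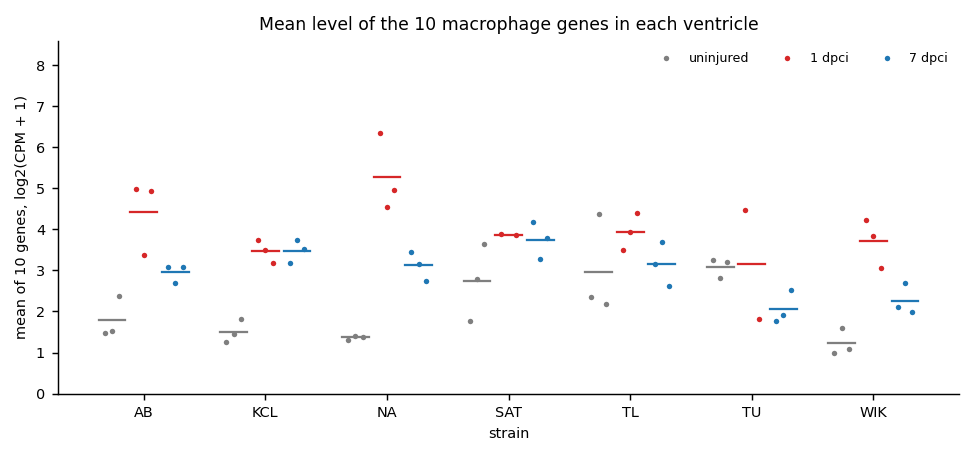
Mean over the 10 members of log2(CPM + 1) in each fish, by strain and stage, with a line at each group mean. NA has a mean of 5.28 at 1 dpci and 1.37 in uninjured fish, and TU has 3.15 at 1 dpci and 3.09 in uninjured fish. The strain names of the NA and TU libraries are in doubt.

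The next question was whether the strains differed from each other at one stage. In uninjured hearts 4 of 10 members differed among the 7 strains, against 13.1% of all genes: grn2 (adjusted p = 2.2e-05), mpeg1.1 (adjusted p = 4.1e-05), grn1 (adjusted p = 0.00019) and marco (adjusted p = 0.045). For mpeg1.1 the order of the strain means in uninjured fish went from WIK, at 0.720 CPM, to TL, at 17.1 CPM. WIK fish had less mpeg1.1 than the mean of the other 6 strains (log2 fold change -2.97 ± 0.81; adjusted p = 0.024), and TU fish had more (1.55 ± 0.45; adjusted p = 0.043). TL fish also had more mpeg1.1 (2.41 ± 0.42) and grn1 (3.25 ± 0.59), and both of these rested on TL replicate 2, without which the values were 1.44 and 0.47 and neither passed. grn2 separated the libraries named uninjured TU, with 76.5, 30.3 and 35.97 CPM, from uninjured AB, KCL, NA and WIK fish, which had at most 2.33 CPM. It did not separate them from uninjured SAT fish (13.8, 4.82 and 130 CPM) or TL fish (0.667, 932 and 3.41 CPM). The strain names of the uninjured NA and TU libraries are in doubt, so the TU values here may belong to NA. Without all NA and TU fish 4 of 10 members differed among the uninjured strains. None of the 8 calls of a strain against the others in uninjured fish held in every fit with 1 fish left out: mpeg1.1 in WIK and in TU fell short without any 1 fish of its own strain, with values of -3.96 to -2.32 and 1.3 to 1.68, and marco lost its difference among strains in 12 such fits, with adjusted p up to 0.11.

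At 1 dpci 3 of 10 members differed among the strains, against 11.4% of all genes: lcp1 (adjusted p = 0.0013), grn2 (adjusted p = 0.0072) and apoeb (adjusted p = 0.037). lcp1 was higher in NA fish than in the mean of the other strains (2.73 ± 0.56; adjusted p = 0.0022) and in AB fish (2.30 ± 0.57; adjusted p = 0.027), and the AB fish had 20.9, 0.583 and 23.9 CPM. The NA call held in every fit with 1 fish left out, and the AB call did not without replicate 21 or 23 (lowest value 1.81). The strain name of the NA fish is in doubt as stated above. grn2 in NA (4.36 ± 0.84) fell short of the threshold without replicate 28, at 1.18, and apoeb in KCL (2.66 ± 0.64) turned to -1.79 without replicate 63. The difference of apoeb among strains was lost in 6 fits with 1 fish left out, with adjusted p up to 0.074, and that of grn2 without replicate 28 (adjusted p = 0.49). Without 1 dpci TU replicate 48, TU keeps 1 fish at 1 dpci, which had no count of csf1ra, grn2 or lcp1, so that fit gives no firm count. Without all NA and TU fish 1 member differed among the strains at 1 dpci.

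At 7 dpci 2 of 10 members differed among the strains, a share near the 13.5% of all genes: mpeg1.1 (adjusted p = 0.0024) and marco (adjusted p = 0.016). mpeg1.1 had 33.2, 16.1 and 23.1 CPM in SAT fish at 7 dpci and 1.2, 1.77 and 4.15 CPM in TU fish. SAT replicate 38, at 33.2 CPM, and TU replicate 49, at 1.2 CPM, are among the 6 libraries with conflicting labels. Their time label is 1 day. SAT fish were higher than the mean of the other strains for mpeg1.1 (1.49 ± 0.38; adjusted p = 0.014) and marco (1.95 ± 0.45; adjusted p = 0.0065). TU fish were lower for mpeg1.1 (-2.39 ± 0.58; adjusted p = 0.0089) and c1qc (-1.62 ± 0.48; adjusted p = 0.043). The strain name of these TU fish is in doubt as stated above. marco no longer differed among strains without SAT replicate 38 (adjusted p = 0.15), the fish with 35.8 CPM. Without the 6 libraries whose labels conflict, replicate 38 among them, no member differed at 7 dpci. None of these 4 strain calls held in every fit with 1 fish left out. Over the 3 stages 19 of 210 comparisons of a strain with the other 6 passed, against 2.93% of all genes, strains and stages.

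Whether the injury response itself differed between strains was tested with an interaction term. At 1 dpci against uninjured 3 of 10 members passed, against 1.81% of all genes: mpeg1.1 (adjusted p = 0.0052), grn2 (adjusted p = 0.015) and c1qb (adjusted p = 0.03). The log2 fold change of mpeg1.1 in this comparison ran from 0.46 ± 0.60 in TU to 4.80 ± 0.72 in NA, and that of c1qb from -0.11 ± 0.53 in TL to 3.15 ± 0.60 in AB. At 7 dpci against uninjured 2 of 10 passed, against 3.54%: mpeg1.1 (adjusted p = 0.0022), from -2.10 ± 0.67 in TU to 3.03 ± 0.75 in NA, and grn1 (adjusted p = 0.0077), from -1.61 ± 0.94 in TU to 4.85 ± 1.13 in KCL. TU was the strain in which mpeg1.1 at 7 dpci, with 1.2, 1.77 and 4.15 CPM, lay entirely below uninjured fish, with 8.31, 9.15 and 13.4 CPM, while in 5 strains the fish at 7 dpci lay entirely above. The direction in TU depends on the doubtful names: the libraries named uninjured NA, which were most like TU at 7 dpci, had 1.37, 1.1 and 1.71 CPM and overlapped the TU fish at 7 dpci. No member passed at 7 dpci against 1 dpci in the main edgeR fit, against 0.0947% of all genes, or in DESeq2. In the main fit 5 members had an unadjusted p below 0.05. The edgeR fit with no filter differed, as given in the closing section.

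All 5 interaction calls were lost in the fit without the fish of NA and TU, which also holds fewer samples. There the adjusted p was 0.16 for mpeg1.1, 0.29 for c1qb and 0.35 for grn2 at 1 dpci against uninjured, and 0.59 for mpeg1.1 and 0.46 for grn1 at 7 dpci against uninjured. The names of their libraries and a difference between the strains cannot be told apart in these calls. The grn2 call was also lost without the 6 libraries with conflicting labels (adjusted p = 0.066) and without 1 dpci NA replicate 28 (adjusted p = 0.051), and with 1 RUVg-type factor grn2 (adjusted p = 0.09), c1qb (adjusted p = 0.2) and, at 7 dpci, grn1 (adjusted p = 0.18) were lost. Without 1 fish, the c1qb call was lost in 4 fits, up to an adjusted p of 0.06.

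The members moved together to different degrees. Over the 21 group means of log2(CPM + 1), the 45 pairs of members had a median Pearson r of 0.70 (Spearman's rho 0.66), from 0.48 for csf1ra and grn2 to 0.95 for c1qa and c1qb. marco and grn1 had 0.93. Since these groups share the injury state, the deviations of the 61 libraries from their group means are given too: their median r was 0.39, with 0.76 to 0.84 among the C1q genes and -0.11 to 0.23 for apoeb with the other members. Within groups the C1q genes thus varied together, and apoeb had little or no such correlation with the other members.

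The C1q genes lie side by side within 12.7 kb on chromosome 21 of GRCz11, all on the minus strand: c1qb at chr21:22712307-22715297, c1qc at chr21:22717824-22720381 and c1qa at chr21:22721957-22724980. The chains are used together in the C1q molecule, and their shares of the summed C1q counts had similar medians at each stage. c1qb took a median of 52.4% of the C1q counts in uninjured fish, 52.7% at 1 dpci and 53.6% at 7 dpci, on a 3′ count that gives 1 tag a transcript whatever its length. The log2 ratio of the summed C1q level to mpeg1.1, with 1 CPM added to both, had a median of 1.86 in uninjured fish (0.77 to 4.73), 1.67 at 1 dpci (0.23 to 2.62) and 2.02 at 7 dpci (1.08 to 3.32), so the ranges overlapped widely.

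The short granulins are also neighbours, grn1 at chr19:40186677-40192249 and grn2 at chr19:40196462-40199098, 4212 bases apart on the minus strand. They are close paralogs, and how reads that match both were divided is uncertain. grn2 made up a median of 20% of the counts of the pair in uninjured fish, 10.4% at 1 dpci and 19.8% at 7 dpci, and its share in single fish ran from 0 to 77.1%. It took more than 50% in 5 uninjured fish and in 1 fish at 1 dpci. The other members lie apart: mpeg1.1 at chr8:29710110-29713621, csf1ra at chr14:3143337-3180947, marco at chr9:795609-813693 and lcp1 at chr9:56251000-56272465 on the minus strand, and apoeb at chr16:23960744-23963461 on the plus strand.

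Among 5411 other genes with a mean of at least 5 CPM, those whose pattern over the 21 groups was most like the mean of the members were grna (Pearson r = 0.96, Spearman's rho 0.96), which encodes the long progranulin, laptm5 (0.96 and 0.97), which encodes a lysosomal membrane protein of blood cells, the gene given the symbol NPC2 with the description zgc:193725 (0.94 and 0.97), zgc:64051 (0.94 and 0.91) and spi1b (0.94 and 0.91), which encodes a PU.1 transcription factor of the myeloid lineage. These values describe likeness over groups that share the injury state.

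Other lists, which do not hold the members, cover genes that macrophages use, many of them shared with other cells. They are set against the 16.2% of all genes that were higher and the 12.1% that were lower at 1 dpci than in uninjured hearts. Of 11 lineage factors and ligands 8 rose and 0 fell, with log2 fold changes of 2.40 ± 0.23 for spi1b, 2.12 ± 0.26 for the transcription factor gene mafbb, 2.04 ± 0.25 for cebpb and 2.01 ± 0.45 for irf8, which macrophages need to form and of which 1 strain had no uninjured count. Of 14 other macrophage-expressed genes 10 rose, among them the amino acid transporter gene slc7a7 (4.25 ± 0.31), the cathepsin S gene ctss2.1 (3.89 ± 0.28) and the galectin gene lgals9l1 (3.87 ± 0.35). p2ry12 also passed, but 6 strains had no uninjured count of it, so its fitted fold has no firm size: it had a median of 0.742 CPM at 1 dpci (0 to 2.93), against 0 CPM in 20 of 21 uninjured libraries. The 2 of this list that fell were the invariant chain genes cd74a (-1.90) and cd74b (-0.85), which serve antigen presentation. cd74a had a median of 28.2 CPM at 1 dpci, with a lowest value of 4.66 CPM, against a range of 30.9 to 478 CPM in uninjured fish.

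Of 13 scavenger and dead-cell uptake receptors 7 rose and 0 fell, among them stab2 (3.21 ± 0.43), havcr1 (2.94 ± 0.24), the mannose receptor gene mrc1b (2.04 ± 0.19) and scarb1 (1.22 ± 0.30). All 12 lysosomal genes tested rose, among them grna (2.79 ± 0.24), ctsba (2.54 ± 0.31), lgmn (2.01 ± 0.17) and cd63 (1.62 ± 0.11). The phagocyte oxidase subunit genes ncf1 (2.98 ± 0.53), cybb (2.46 ± 0.36) and rac2 (2.38 ± 0.28) rose as well. Of 8 apolipoprotein and lipid genes 5 rose, apoc1 (2.67 ± 0.51), plin2 (1.53 ± 0.22), abca1b (0.97 ± 0.16) and abca1a (0.71 ± 0.14) the most. Of stab2, ncf1 and apoc1 1 strain had no uninjured count, so the sizes of their fitted folds are not firm.

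Partners of C1q did not move as a group: of 5 tested, c3a.1 (2.25 ± 0.47) and c1s (0.79 ± 0.28) rose and c4 (-1.07) and c1qbp (-0.28) fell. Of 9 activation genes tested 2 rose, tnfb (1.40 ± 0.46) and tgfb1a (0.37 ± 0.12), a share near that of all genes, and il1b had a median of 0.172 CPM at 1 dpci (0 to 5.64), with no count in 19 of 21 uninjured libraries.

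At 7 dpci against uninjured hearts, 4.46% of all genes were higher. In the lineage list 4 of 11 rose, csf1a (1.39 ± 0.34), which encodes a ligand of csf1ra, spi1b (0.91 ± 0.23), cebpb (0.90 ± 0.25) and csf1rb (0.82 ± 0.26). In the list of other macrophage-expressed genes 5 of 14 rose, with 1.41 ± 0.37 for slc7a7, 1.19 ± 0.32 for ctss2.1, 1.06 ± 0.24 for fcer1gl and 1.02 ± 0.24 for hmox1a. The 4 of 13 uptake receptors that rose were havcr1 (1.3 ± 0.25), mrc1b (1.24 ± 0.20), lrp1aa (1.11 ± 0.17) and lrp1ab (0.48 ± 0.13). Of the lysosomal genes 4 of 12 rose, grna (0.99 ± 0.25), the cathepsin K gene ctsk (0.90 ± 0.18), cd63 (0.42 ± 0.11) and the cathepsin D gene ctsd (0.41 ± 0.12), and 10 of 12 were lower at 7 dpci than at 1 dpci. The complement genes c4b (1.15 ± 0.21) and c4 (0.92 ± 0.19) rose, as did the arginase gene arg2 (1.29 ± 0.19) of the activation list, and 0 of 8 apolipoprotein and lipid genes passed.

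Markers of other cells moved in the same samples. At 1 dpci against uninjured, 9 of 9 genes shared by all leukocytes rose, among them plek (4.37 ± 0.36, with 1 strain at 0 in uninjured fish), coro1a (2.80 ± 0.20), laptm5 (2.2 ± 0.21) and fermt3b (2.12 ± 0.20). Of 8 neutrophil genes 7 rose, mpx, mmp9, lect2l and mmp13a with the largest fitted folds, which have no firm size because 1 to 4 strains had no uninjured count of each. The myeloperoxidase gene mpx had a median of 3.14 CPM at 1 dpci (0.579 to 8.44), against 0 CPM in uninjured fish (0 to 4.58), with no count in 16 of 21 uninjured libraries. The summed level of the neutrophil list had a median of 24.3 CPM at 1 dpci (9.27 to 111) and 7.31 CPM at 7 dpci (1.2 to 217), against 3.65 CPM in uninjured fish (0.683 to 78.3). At 7 dpci 0 of 8 neutrophil genes passed, while 6 of 9 genes shared by leukocytes did, with 1.16 ± 0.18 for cxcr4b, 1.06 ± 0.22 for wasb, 0.85 ± 0.21 for coro1a and 0.82 ± 0.22 for laptm5. The summed level of the 10 members had a median of 475 CPM at 1 dpci and 134 CPM at 7 dpci, against 40.5 CPM in uninjured fish. Much of this sum at 1 dpci was grn1, which alone had medians of 382, 42.7 and 7.47 CPM in the same order. mpeg1.1 had 18.1, 10.9 and 3.76 CPM, so the sum is not a measure of the more restricted markers. lcp1, grn1 and grn2 are not limited to macrophages, and the part of neutrophils in their change was not tested.

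None of 4 T and NK cell, 2 B cell or 4 thrombocyte genes passed at either stage against uninjured, which in lymphocyte genes, at a few counts a library, does not show that they were level. The summed T and NK cell level had a median of 0.861 CPM at 1 dpci and 0.557 CPM at 7 dpci, against 0.291 CPM in uninjured fish, and the summed B cell level had a median of 0 CPM at every stage. Of 8 erythroid genes only gata1a fell (-0.62 ± 0.23 at 1 dpci), and of 8 endothelial genes only fli1a rose (0.69 ± 0.23 at 1 dpci). Of 10 cardiomyocyte genes 8 fell at 1 dpci, among them ryr2b (-0.94 ± 0.13), myl7 (-0.93 ± 0.07), tnnc1a (-0.92 ± 0.13) and atp2a2a (-0.85 ± 0.12). At 7 dpci 3 of 10 were lower than in uninjured fish, myl7 (-0.38 ± 0.07), tnnt2a (-0.29 ± 0.07) and cmlc1 (-0.25 ± 0.07). The share of all genes that were lower in that comparison is not given, so this count cannot be read as particular to muscle genes. The summed level of the cardiomyocyte genes had a median of 17008 CPM at 1 dpci and 24327 CPM at 7 dpci, against 27920 CPM in uninjured fish. CPM are shares of a library, and the part of the lower muscle share in the members' rise was not tested. Of 6 fibroblast and epicardial genes, the collagen gene col1a1a rose (0.84 ± 0.16) and the periostin gene postnb fell (-0.79 ± 0.22) at 1 dpci against uninjured. At 7 dpci 4 of 6 rose, postnb (3.35 ± 0.21), col1a1a (2.18 ± 0.16), tbx18 (1.1 ± 0.14) and tcf21 (0.84 ± 0.20).

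**Figure D4:**
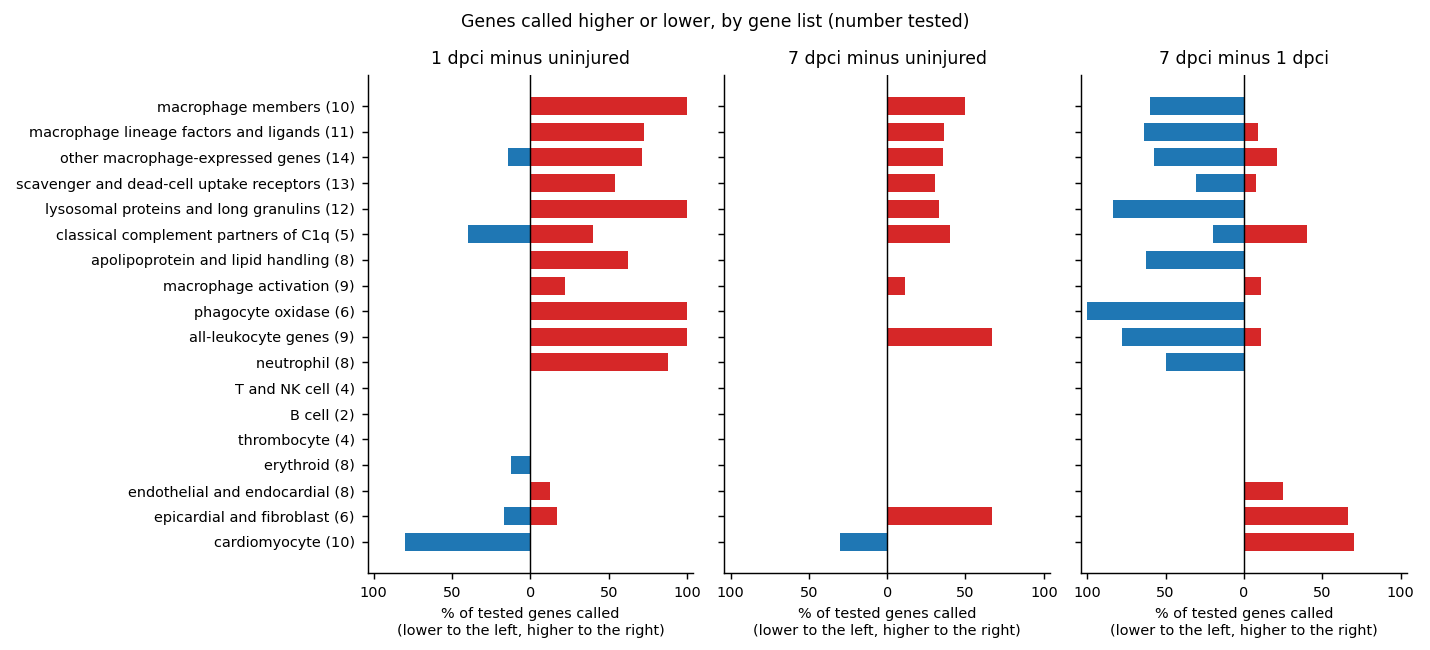
Share of the tested genes of each list that were higher or lower in each stage comparison (percent of the list), with lower to the left and higher to the right. At 1 dpci against uninjured the members, lysosomal and leukocyte lists reach 100%, while no T, B or thrombocyte gene passed.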

How the data were processed

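Ventricle RNA was sequenced as 3′ tags (QuantSeq 3′ FWD), in which a transcript gives about 1 tag whatever its length. Per the labels and the study's methods, the authors used bcl2fastq 2.20.0, Trim Galore 0.6.4 and STAR 2.7.6a on GRCz11, and deposited whole-number counts per gene for each library and a table of log2 normalized values with gene coordinates. Their own tests used DESeq2 with RUVg, and no results of those tests were used here.

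Counts were tested with edgeR 4.0.16 (quasi-likelihood, TMM) and limma 3.58.1 in R 4.3.3, 1 mean per strain and stage, on the 16890 genes that reached 1 CPM in some library, with Benjamini-Hochberg adjusted p below 0.05 as the call. The mean over strains weights the 7 strains equally. DESeq2 1.42.0, a RUVg-type factor, other filters and left-out fish were alternatives. The RUVSeq package was not used: the factor was computed directly, as the first singular vector of centred log(CPM + 1) over the genes with a coefficient of variation below the median, where RUVg itself works on counts. The deposited log2 values served for coordinates and as an alternative for levels and likeness. The fit was also run on counts simulated with its own trended dispersion and with stage effects shared by the strains. That run does not bear on groups with outlying fish, and its results are not given. All 10 members are named, with, from each other list, up to 4 genes of largest change among those that passed at 1 dpci against uninjured and then at 7 dpci against uninjured, and the 5 genes most like the members; cd74a, cd74b and il1b were named after their values were seen, and 1 gene that the rule names is not reported here. The members and lists were chosen with earlier results of these data known. Replicates are single fish, and the floor of 3 counts covers counting error only. Figures used matplotlib 3.10.9.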

Additional observations from a re-analysis of the deposited data

Results flagged for a closer look

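The change after injury differed among the 7 strains for 3 members at 1 dpci against uninjured hearts, by an interaction test in edgeR: mpeg1.1 (adjusted p = 0.00516), grn2 (adjusted p = 0.0147) and c1qb (adjusted p = 0.0298). At 7 dpci against uninjured hearts it differed for mpeg1.1 (adjusted p = 0.00216) and grn1 (adjusted p = 0.00775). All 5 were lost without the NA and TU fish (adjusted p 0.16 to 0.59). With 1 RUVg-type factor c1qb (adjusted p = 0.2), grn2 (adjusted p = 0.09) and grn1 (adjusted p = 0.18) were lost, and grn2 was lost without the 6 libraries with conflicting labels (adjusted p = 0.066). In DESeq2 all 5 passed (adjusted p 1.7e-05 to 0.0035). The part of the doubtful strain names of the NA and TU libraries was not tested.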

How the results depend on the processing

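DESeq2 size factors, edgeR's own expression filter, dispersions from estimateDisp and leaving out the mitochondrial genes changed no count of calls beyond 1.5 times. With 1 RUVg-type factor the calls were 0, 3 and 0 of 10 (1 dpci against uninjured, 7 dpci against uninjured, 7 against 1 dpci), 0 and 0 of 70 within strains at 1 dpci against uninjured and at 7 against 1 dpci, 5 among strains at 7 dpci, and 1 and 1 for interactions. Its log2 changes at 1 dpci against uninjured were -0.22 for csf1ra, -0.55 for c1qa and -3.30 for grn2; at 7 against 1 dpci they were 0.61 for mpeg1.1, 1.22 for csf1ra, 1.28 for c1qa, 0.85 for c1qb, 0.74 for c1qc, 0.037 for apoeb, 3.83 for grn2 and 0.89 for lcp1. Within strains it gave -1.76 for lcp1 in AB and -0.11 for mpeg1.1 in KCL at 1 dpci against uninjured, and, at 7 against 1 dpci, 0.80 for lcp1 in AB, 0.28 for mpeg1.1, 2.9 for grn2 and 1.37 for lcp1 in NA, and 0.88 for grn1 in TL. With no filter the counts were 9 at 7 dpci against uninjured, 44, 34 and 30 within strains, 9, 9 and 8 among strains, 9, 9 and 9 for interactions and 83 for strains against the others. In that edgeR fit the adjusted p of the grn2 interaction at 1 dpci against uninjured was 1.4e-162, in place of 0.0147. The share of all genes that passed in it is not given, so its larger counts cannot be read as stronger results for the members. DESeq2 gave 14 within strains at 7 dpci against uninjured, 7 among uninjured strains, and 6 and 5 for interactions. It gave no adjusted p for csf1ra in the interactions. The counts with 1 RUVg-type factor and in DESeq2 also stand without the share of all genes that passed.

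Without NA and TU the counts were 2 and 2 of 50 within strains (7 dpci against uninjured, 7 against 1 dpci; 1 and 3 in the same 5 strains with all fish), 1 among strains at 1 dpci, 0 and 0 for interactions and 10 of 150 for strains against the others, and the 7 against 1 dpci changes were 0.18 for c1qa, 0.051 for c1qb and 0.095 for c1qc. Without the 6 libraries with conflicting labels they were 7 within strains at 7 against 1 dpci, 0 among strains at 7 dpci and 10 for strains against the others. With 1 shared stage effect, chosen after seeing the data, 3 members passed at 7 dpci against uninjured and grn2 had -0.37.

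With each fish left out, the stage counts ran from 7 to 10, 5 to 6 and 3 to 7, the counts within strains from 23 to 28, 1 to 4 and 5 to 13, those among strains from 3 to 5, 2 to 8 and 1 to 2, those for interactions from 1 to 7, 2 to 3 and 0 to 1, and strains against the others from 16 to 20. The 7 against 1 dpci change ran from -0.26 to 0.13 for c1qa, from -0.33 to 0.042 for c1qc and, in TU, from -3.38 to 0.060 for mpeg1.1, each time highest without TU replicate 48 and lowest without TU replicate 54; apoeb in KCL at 1 dpci against the other strains ran from -1.79 (without replicate 63) to 3.23 (without replicate 62). Leaving out a 1 dpci fish of SAT or TU left 1 fish in its group, so the counts from those fits are not firm. The causes were not tested.

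Stages of 1 strain shared no replicate number, and apart from 1 injured AB library the shared numbers were among uninjured libraries. In same-numbered uninjured libraries of different strains the deviations from the strain means had correlations of -0.19 to 0.23 over 33 pairs. Their median was 0.032, against 0.0042 over 156 other pairs. Such values cannot decide whether same-numbered libraries were handled together. With a replicate block 4 members differed among uninjured strains, against 6 in the same libraries with no block. For csf1ra, lcp1 and grn2 some groups of fish had no count, which makes fitted folds unstable.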
